A study of Mus musculus with 12 samples.

Results

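The genes of the G2 to M transition and of mitosis were followed in C2C12 cells, an established line of mouse myoblasts that leave the cell cycle and fuse into myotubes when serum is lowered. A list of 53 genes was matched to the probes of an Illumina mouse expression BeadChip through their gene symbols and older aliases, and a gene was tested when a probe of it was detected (detection p under 0.05) on at least 2 of the 12 arrays. This left 44 of the 53 genes among the 10847 genes tested in all. The arrays form 6 groups of 2: cells given the control siRNA siSCR, an siRNA against BRM (siBRM, gene Smarca2) or an siRNA against BRG1 (siBRG1, gene Smarca4), each at 100 nM with the reagent Dharmafect3, and each kept in differentiation medium (low horse serum with ITS) for 18 h or 48 h. Every group, the siSCR controls included, was transfected and was in differentiation medium. Cells in growth medium were not analysed here, and the labels do not say whether an siRNA was a single duplex or a pool. The comparisons ask how the mitotic genes moved between 18 h and 48 h, and whether they depended on BRM or on BRG1, the alternative ATPases of the SWI/SNF chromatin remodelling complexes.

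Mitotic genes are transcribed late in the cell cycle. In cycling cells their promoters are activated by MuvB complexes joined with B-Myb and FoxM1, which meet the DNA at the cell cycle genes homology region, often beside CCAAT boxes bound by NF-Y; in cells that leave the cycle, the same MuvB core joins p130 and E2F4 in the repressive DREAM complex. Myoblasts must stop dividing before they fuse, and the CDK inhibitor p21 (Cdkn1a) is known to increase as they do.

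The promoters below carry these elements just before the annotated gene start and belong to genes described in the results, with Nuf2 shown because its probe gave the smallest adjusted p in siSCR between the times, without a block or with the BeadChip in the fit, although its promoter held none of the searched letters. They are RefSeq sequences of build GRCm38.p6, written 5′ to 3′ on the strand of the gene, and the last printed base lies directly before the gene start. Capitals mark TTTGAA or TTCGAA (the letters searched for the cell cycle genes homology region) and CCAAT (the NF-Y box), on either strand, so that TTCAAA and ATTGG are matches too.
Cdk1 (chr10:69352913-69353022, minus strand): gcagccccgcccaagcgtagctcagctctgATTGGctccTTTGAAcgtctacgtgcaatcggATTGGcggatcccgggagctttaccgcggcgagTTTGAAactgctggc
Cdc20 (chr4:118437344-118437453, minus strand): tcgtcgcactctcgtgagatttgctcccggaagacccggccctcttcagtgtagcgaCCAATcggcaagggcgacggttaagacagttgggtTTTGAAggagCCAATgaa
Kif11 (chr19:37376272-37376381, plus strand): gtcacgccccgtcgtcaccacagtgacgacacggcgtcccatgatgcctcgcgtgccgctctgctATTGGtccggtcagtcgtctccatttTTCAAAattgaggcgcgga
Kif22 (chr7:127042421-127042530, minus strand): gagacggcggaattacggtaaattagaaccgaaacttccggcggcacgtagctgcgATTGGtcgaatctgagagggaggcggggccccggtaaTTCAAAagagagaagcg
Prc1 (chr7:80294366-80294475, plus strand): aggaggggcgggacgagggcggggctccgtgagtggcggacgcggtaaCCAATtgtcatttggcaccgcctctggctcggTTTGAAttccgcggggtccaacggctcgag
Top2a (chr11:99024190-99024299, minus strand): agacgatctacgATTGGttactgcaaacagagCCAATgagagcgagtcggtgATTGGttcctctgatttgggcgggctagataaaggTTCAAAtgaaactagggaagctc
Nuf2 (chr1:169531465-169531574, minus strand): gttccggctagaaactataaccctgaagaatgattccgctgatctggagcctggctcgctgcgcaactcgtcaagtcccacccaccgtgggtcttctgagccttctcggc
Each motif was searched by itself on both strands, so that matches of different motifs may overlap. A promoter, taken as the 250 bases before and the 50 after the start, was found in RefSeq for 44 of the 53 listed genes and for 35 of the 44 tested. TTTGAA or TTCGAA stood in 27 of these 35 tested genes (77.1%), against 21.7% of all 27025 genes with a promoter. CCAAT stood in 24 of the 35 (68.6%, against 41.1%), and all 24 of them held both elements (68.6%, against 9.65%). At least 2 CCAAT boxes were found in 42.9% of the 35, against 13.3% of all genes. The E2F letters TTTGGCGC, TTTCGCGC, TTTGGCGG or TTTCCCGC stood in 4 (11.4%, against 2.7%), among them Cdk1, the kinase that drives entry into mitosis. Top2a, the topoisomerase that separates sister DNA, held 6 CCAAT boxes and 4 homology elements. These are matches of letters, not measured binding sites.

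The arrays differed in ways the groups do not explain, and the mitotic genes were among those touched. Per the array positions in the labels, BeadChip 1 held the 18 h samples of replicate 1, BeadChip 2 the 48 h samples of replicate 1 and BeadChip 3 all samples of replicate 2; between 27.33% and 39.37% of probes were detected per array. Levels below are log2 of the background-corrected, quantile-normalized signal of 1 probe per gene, given with replicate 1 before replicate 2. At 18 h replicate 2 lay above replicate 1 with all 3 siRNAs for 21 of the 44 mitotic genes and below it for 18, so the replicates are shown apart. Of all 10847 genes, 3833 lay above and 4569 below in the same way. The replicates thus differed in 1 direction for 88.6% of the mitotic genes and 77.5% of all genes. At 48 h the siSCR array of replicate 2 stood out: its value was the lowest of the 12 for 30 of the 44, where 17.5% of all genes had their lowest value on it. Its median over the 44 was 9.66, against 10.34 on the siSCR array of replicate 1, while the median over all genes was 8.80 and 8.97. The sources used here do not say whether the replicates were separate cultures, so each p-value measures no more than how far these samples spread, which may be technical.

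The siRNA targets followed the labels in direction. Smarca2 with siBRM differed from siSCR by -0.71 and -1.63 at 18 h in replicates 1 and 2 (mean log2 difference ± SE, -1.17 ± 0.79) and by -0.71 and -0.48 at 48 h (-0.59 ± 0.79). Smarca4 with siBRG1 differed by -1.37 and -1.05 at 18 h (-1.21 ± 0.86) and by -2.46 and -1.43 at 48 h (-1.94 ± 0.86); it was not detected on either siBRG1 array of replicate 1, so the replicate 1 differences are against a signal at background. Limma, a linear model fitted across all tested probes, gave an adjusted p of 1 for each of the 4, so neither knockdown passed the test. Smarca2 also lay higher with siBRG1 than with siSCR at 48 h, by 0.85 and 0.68. Of the myoblast and muscle markers, 7 of 8 were detected on all 12 arrays (Myf5 fell below the limit for testing). Of the 13 markers of adipocytes, leukocytes, endothelium and epithelium, 7 were below detection, 2 had no probe named in the annotation, and Cd3e, Kdr, Krt8 and Cdh1 were detected on 3 to 6 arrays. Cd3e was higher at 48 h than at 18 h in siSCR by 1.02 and 1.58, against 18 h signals at background. At 48 h it read 6.46 and 7.43 with siSCR, 7.89 and 7.34 with siBRM and 5.71 and 6.69 with siBRG1. Kdr was at background on all arrays of replicate 2, and at 48 h it read 6.23 with siSCR, also at background, 8.11 with siBRM and 7.60 with siBRG1 in replicate 1. Krt8 was detected on all 6 arrays of replicate 2 (6.93 to 7.56) and on none of replicate 1. Cdh1 was detected at 18 h on the siSCR and siBRM arrays of replicate 1 and at 48 h on the siBRM array of replicate 2. The part of these markers in the results was not tested.

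Detection differed among the mitotic genes. Of the 44 tested, 35 were detected on all 12 arrays, 4 on 7 to 11 (Ect2, Cenpf, Plk4 and Pttg1) and 5 on 2 to 5 (Ttk, Ccna2, Kif20a, Ncapg and Ube2c). Kif20a, Ncapg and Ube2c, each detected on 2 arrays, lay just inside the limit, and Nek2 and Bub1, each on 1, just outside it. Ccnb2, Cks2, Cenpe, Hmmr and Racgap1 were detected on no array. Ccnb1, the main cyclin partner of Cdk1, and Mki67, the proliferation marker Ki-67, had no probe named in the annotation used here and were not analysed. For the 24 genes with several tested probes the brightest probe was read, and all probes had the same sign in 21 of them for siSCR at 48 h against 18 h, in 19 with siBRM and in 20 with siBRG1. Against siSCR it was 13 of the 24 for siBRM and 13 for siBRG1 at 18 h, and 12 and 20 at 48 h; for siBRM against siBRG1 it was 14 and 17 at the 2 times.

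Between 18 h and 48 h the mitotic genes were lower as a set with all 3 siRNAs, with few exceptions, and individual genes passed the test only where the BeadChip or the replicate entered the fit. In siSCR the median difference over the 44 was -0.87 on the log2 scale, against -0.06 over all 10847 genes. It was -0.38 within replicate 1 and -1.43 within replicate 2, which is the only pair of arrays on 1 BeadChip. With siBRM the median was -0.63 (-0.57 and -0.66 within the replicates), and with siBRG1 it was -0.64 (-0.48 and -0.68). In siSCR 34 of the 44 were lower at 48 h in both replicates, where 31.9% of all genes were, and 1 was higher in both (Kif23, 25.3% of all genes). With siBRM 33 were lower in both (31.7%) and Kif23 higher (29.1%), and with siBRG1 30 were lower (33.9%) and Kif23 higher (31%). The 48 h arrays lay wholly below the 18 h arrays for 28 of the 44 in siSCR (12.8% of all genes), for 23 with siBRM (12.5%) and for 24 with siBRG1 (11%). They lay wholly above them for 0 in siSCR (12.7%) and for Kif23 alone with siBRM (12.4%) and siBRG1 (12.3%). Within replicate 2 alone 42, 41 and 40 of the 44 were lower at 48 h in siSCR, siBRM and siBRG1 (54.3%, 51.2% and 52.1% of all genes). Within replicate 1 alone 35, 35 and 33 were lower (52.2%, 51.3% and 50.7%). In RNA of whole cultures, fewer cells in mitosis and less of these transcripts per cell cannot be told apart.

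The size of this step depended on the scaling and on 1 array. Under median scaling in place of quantile normalization the median over all genes was 0.27 in siSCR at 48 h against 18 h and that over the mitotic genes -0.46, which is 0.73 below it. Relative to all genes, 42 of the 44 were then lower with each siRNA. Without the siSCR 48 h array of replicate 2 the siSCR median was -0.49, and without that of replicate 1 it was -1.24.

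**Figure D1:**
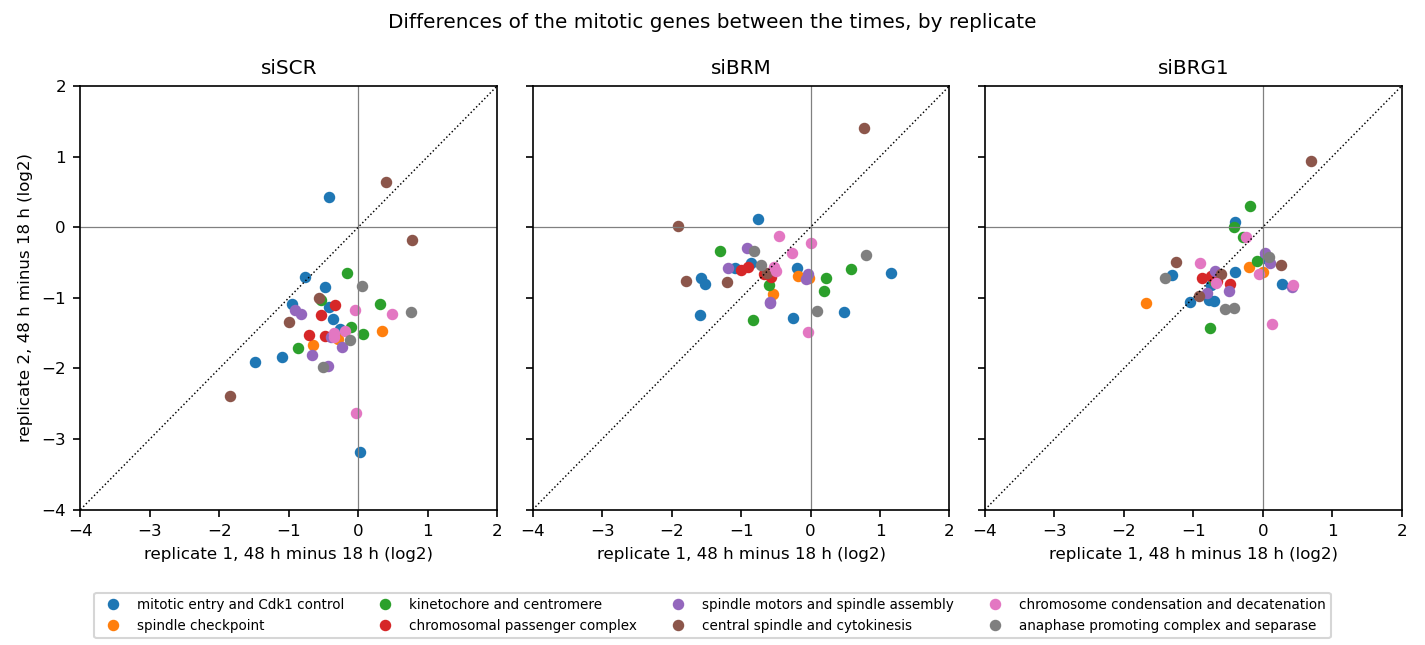
Difference of each of the 44 mitotic genes between 48 h and 18 h (log2) within replicate 1 (x axis) and within replicate 2 (y axis), 1 panel per siRNA, coloured by role. Most points lie below 0 on both axes; in siSCR all but Melk, Cdc25b and Kif23 lie below the dotted line of equal replicates, with a median of -0.38 on the x axis and -1.43 on the y axis.

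Among the genes of mitotic entry and Cdk1 control, 8 of 10 were lower at 48 h in both replicates of siSCR (31.9% of all genes), 7 with siBRM (31.7%) and 7 with siBRG1 (33.9%). Plk1, the Polo kinase that promotes entry and spindle assembly, read 13.65 and 13.05 with siSCR, 13.74 and 12.60 with siBRM and 13.96 and 13.43 with siBRG1 at 18 h, and 12.54 and 11.20, 12.17 and 11.88, and 12.91 and 12.37 at 48 h in the same order. Its 18 h arrays lay above its 48 h arrays with every siRNA, and the difference in siSCR was -1.47 ± 0.59 (limma adjusted p = 0.945). Aurka, the spindle pole kinase, read 13.26 and 11.98 with siSCR, 13.49 and 12.12 with siBRM and 13.75 and 11.99 with siBRG1 at 18 h, and 11.77 and 10.07, 11.89 and 10.88, and 12.44 and 11.30 at 48 h in the same order. Replicate 2 lay below replicate 1 in all 6 groups, and within each replicate the 48 h array was lower; the difference in siSCR was -1.70 ± 0.87 (adjusted p = 1), and Aurka fell in the fit with the replicate as a fixed term (limma adjusted p = 0.0196), but not with the BeadChip fixed (0.0621) or random (0.0629). Cdk1 read 12.02 and 12.10 with siSCR, 11.77 and 12.47 with siBRM and 11.91 and 12.22 with siBRG1 at 18 h, and 11.60 and 10.96, 11.51 and 11.18, and 11.50 and 11.59 at 48 h in the same order. All 6 of its 48 h arrays lay below all 6 of its 18 h arrays, by -0.78 ± 0.43 in siSCR (adjusted p = 1).

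The regulators around Cdk1 varied more. Foxm1, the activator of the G2/M programme, read 10.91 and 10.27 at 18 h and 10.55 and 8.96 at 48 h in siSCR, so that the groups overlapped (-0.83 ± 0.58, adjusted p = 1). Cdc25c, a phosphatase that activates Cdk1, differed by -0.96 and -1.09 in siSCR, while its relative Cdc25b differed by -0.42 and 0.43, the smallest mean difference in this group. Ccna2 (cyclin A2) was detected on no siSCR array, so its difference of -0.66 ± 0.55 is that of a signal at background. Plk4, the kinase that duplicates centrioles, showed wide gaps between replicates and was undetected on 4 arrays: it read 5.37 and 9.06 with siBRG1 at 18 h and 8.10 and 6.02 with siSCR at 48 h.

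Of the 3 tested spindle checkpoint genes, whose products hold back anaphase until chromosomes are attached, 2 had siSCR groups that did not overlap. Both were lower at 48 h, as 12.8% of all genes were in this way. Mad2l1 read 11.64 and 12.47 with siSCR, 11.25 and 12.51 with siBRM and 11.54 and 12.59 with siBRG1 at 18 h, and 10.99 and 10.79, 10.71 and 11.57, and 11.34 and 12.02 at 48 h in the same order. It was lower at 48 h within each replicate with every siRNA, though with siBRM and siBRG1 the 48 h array of replicate 2 lay above the 18 h array of replicate 1. Bub1b (BubR1) differed by -0.29 and -1.58 in siSCR. Ttk (Mps1), the kinase that starts the checkpoint signal, was detected on 5 arrays; with siBRG1 it read 7.10 and 7.16 at 18 h, detected in replicate 2, and 5.42 and 6.09 at 48 h, detected in neither. With 1 of these 4 arrays above background, no fold is given (limma adjusted p = 1).

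In the kinetochore, Nuf2, a subunit of the Ndc80 complex that binds microtubules, had the smallest adjusted p of the 44 without a block and with the BeadChip in the fit. It read 7.94 and 8.62 with siSCR, 8.44 and 8.95 with siBRM and 8.41 and 8.86 with siBRG1 at 18 h, and 7.07 and 6.91, 7.60 and 7.64, and 7.65 and 7.42 at 48 h in the same order. All 6 of its 48 h arrays lay below all 6 of its 18 h arrays. The difference was -1.29 ± 0.42 in siSCR, -1.07 ± 0.42 with siBRM and -1.10 ± 0.42 with siBRG1. None of these passed the test without a block (limma adjusted p = 0.706, 0.997 and 1). With the BeadChip fixed, Nuf2 fell in siSCR (-1.62 ± 0.26, limma adjusted p = 0.0347). It was the only 1 of the 44 to pass in that fit, where 0.258% of all genes fell. With siBRM that fit gave -1.40 ± 0.26 and an adjusted p of 0.058. As a random term the BeadChip gave an adjusted p of 0.0196 in siSCR and 0.0419 with siBRM, while with the replicate fixed neither passed (0.0731 and 0.14). Its partners in the complex differed less: Ndc80 by -0.16 and -0.65 in siSCR, Spc24 by 0.31 and -1.08, and Spc25 by 0.06 and -1.51. These are their brightest probes: the second probe of Spc25 differed by -0.26 and -1.28, and that of Spc24 by 2.44 and -0.05. Cenpa, the centromeric histone H3 variant, read 14.30 and 14.24 at 18 h and 14.19 and 12.83 at 48 h in siSCR, where the 48 h array of replicate 2 stood far below the other 3.

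All 4 genes of the chromosomal passenger complex, which corrects chromosome attachments and positions the division furrow, were lower at 48 h in both replicates of all 3 siRNAs, and the groups did not overlap in any of them. Of all genes, 31.9% were lower in both replicates with siSCR, 31.7% with siBRM and 33.9% with siBRG1. The groups lay apart and lower for 12.8%, 12.5% and 11% of all genes. The kinase Aurkb read 11.02 and 11.11 with siSCR, 11.06 and 10.92 with siBRM and 11.18 and 11.34 with siBRG1 at 18 h, and 10.48 and 9.87, 10.39 and 10.25, and 10.72 and 10.54 at 48 h in the same order. Birc5 (survivin) read 13.31 and 12.90 with siSCR, 13.37 and 12.98 with siBRM and 13.60 and 13.09 with siBRG1 at 18 h, and 12.60 and 11.37, 12.47 and 12.41, and 12.73 and 12.38 at 48 h in the same order. In siSCR the difference was -0.89 ± 0.39 for Aurkb and -1.12 ± 0.49 for Birc5 (adjusted p = 1 for both), and the mean differences of its 3 tested probes were -1.12, -0.81 and -1.21. Incenp, the scaffold, differed by -0.33 and -1.10 in siSCR, and Cdca8 (borealin) by -0.48 and -1.55.

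All 6 genes of the spindle motors and spindle assembly factors were lower at 48 h in both replicates of siSCR (31.9% of all genes) and siBRM (31.7%), and 3 of the 6 in both of siBRG1 (33.9%). Kif11, the motor Eg5 that pushes the poles apart, read 10.67 and 10.60 with siSCR, 10.57 and 10.54 with siBRM and 10.94 and 10.38 with siBRG1 at 18 h, and 10.27 and 9.05, 9.99 and 9.48, and 10.14 and 9.45 at 48 h in the same order. Its siSCR difference was -0.97 ± 0.51 (adjusted p = 1). Nusap1, a microtubule-bundling protein, differed by -0.67 and -1.81 in siSCR, the largest mean difference of this group. Kif4, a chromosome-bound motor, differed by -0.44 and -1.97, and Kif2c (MCAK), which takes microtubules apart at the centromere, by -0.91 and -1.18. Tpx2, the activator of Aurka, differed by -0.24 and -1.70 and read 8.93 and 10.64 at 18 h, so that its replicates at 1 time lay about as far apart as the times did within replicate 2.

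The central spindle group held both ends of the range. Anln (anillin), which organises the contractile ring, had the largest decrease of the 44, and read 14.73 and 13.45 with siSCR, 14.49 and 12.97 with siBRM and 14.06 and 13.17 with siBRG1 at 18 h, and 12.87 and 11.06, 12.70 and 12.21, and 13.14 and 12.20 at 48 h in the same order. The difference was -2.12 ± 0.78 in siSCR, -1.85 and -2.39 within the replicates. This is its brightest probe: the second, also detected on all 12 arrays, fell less, by -0.99 on average (-1.27 and -0.72). Anln fell in siSCR with the replicate as a fixed term (adjusted p = 0.0179) or the BeadChip as a random term (0.0299), and did not pass the test without a block (0.851) or with the BeadChip fixed (0.0619). Prc1, which bundles the central spindle, read 14.15 and 13.76 at 18 h and 13.15 and 12.43 at 48 h in siSCR (-1.17 ± 0.43, adjusted p = 0.847), and its 18 h and 48 h arrays did not overlap with any siRNA. Kif23 (MKLP1), its neighbour at the central spindle, was the exception: its brightest probe was higher at 48 h in both replicates of every siRNA, by 0.41 and 0.65 in siSCR and by 1.09 ± 0.54 on average with siBRM (limma adjusted p = 1). Its other probes disagreed. The 2 next in brightness, both detected on all 12 arrays, differed by -1.32 and -1.44 on average in siSCR, so no direction can be given for the gene. Kif20a, another central spindle motor, was detected on 1 siBRM array at 18 h and 1 siSCR array at 48 h, and the remaining 10 arrays gave no signal above background.

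Of the 6 genes of chromosome condensation and decatenation, 5 were lower in both replicates of siSCR (31.9% of all genes) and siBRM (31.7%), and 4 in those of siBRG1 (33.9%). Top2a read 12.80 and 12.91 with siSCR, 12.04 and 12.48 with siBRM and 12.51 and 12.65 with siBRG1 at 18 h, and 12.45 and 11.41, 11.77 and 12.12, and 11.83 and 11.86 at 48 h in the same order. Its siSCR groups did not overlap (-0.93 ± 0.45, adjusted p = 1), and the replicates differed, by -0.35 and -1.51. Smc2, a core ATPase of condensin, read 7.45 and 8.72 with siSCR, 8.25 and 8.37 with siBRM and 8.37 and 8.95 with siBRG1 at 18 h, and 7.42 and 6.08, 7.71 and 7.80, and 8.5 and 7.57 at 48 h in the same order. The siSCR array of replicate 2 at 48 h was the lowest of the 12 by over 1 log2 unit, and replicate 1 differed by only -0.03. Its partner Smc4 differed by -0.19 and -1.47 in siSCR and the condensin subunit Ncaph by -0.34 and -1.56, while Ncapd2 differed by 0.48 and -1.22.

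In the group of the anaphase-promoting complex and separase, which ends mitosis by destroying cyclins and cutting cohesin, 2 of 4 genes were lower in both replicates of siSCR (31.9% of all genes), 2 with siBRM (31.7%) and 3 with siBRG1 (33.9%). Cdc20, the activator of the complex, read 12.63 and 13.36 with siSCR, 12.98 and 13.02 with siBRM and 12.99 and 13.67 with siBRG1 at 18 h, and 12.51 and 11.76, 12.27 and 12.48, and 12.57 and 12.53 at 48 h in the same order. It differed by -0.12 and -1.59 in siSCR, and the mean of each of its 4 probes was lower at 48 h with every siRNA. Espl1 (separase) read 10.16 and 9.69 at 18 h and 9.65 and 7.71 at 48 h in siSCR. Pttg1 (securin), which holds separase back, differed by 0.76 and -1.21, and Ube2c, the ubiquitin-conjugating partner of the complex, was detected on 2 arrays, both of replicate 2 at 18 h.

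Across all 44, 0 genes passed limma's test without a block in siSCR (0.323% of all genes did), with siBRM (0.461%) or with siBRG1 (0.101%). An unadjusted p under 0.05 was found for 7 in siSCR, 2 with siBRM and 2 with siBRG1, where 5.39%, 4.76% and 3.36% of all genes had one. With the BeadChip fixed, 29 mitotic genes were lower and 1 higher in siSCR at an unadjusted p under 0.05, where 17.2% of all genes passed in either direction; it was 22 of 44 with siBRM (14.6%) and 21 with siBRG1 (11%). After adjustment 1 fell in siSCR, and 0 with siBRM (0.184% of all genes) or siBRG1 (0.0184%). With the BeadChip fixed, the step between the times rests on BeadChip 3, the only 1 that held both. The replicate as a fixed term gave 2 in siSCR (Aurka and Anln, where 0.821% of all genes fell) and 1 with siBRM (Aurka, 0.599%), and the random BeadChip term 2 in siSCR (Nuf2 and Anln, 0.71%) and 1 with siBRM (Nuf2, 0.489%). With siBRG1 the count was 0 in all 4 fits.

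**Figure D2:**
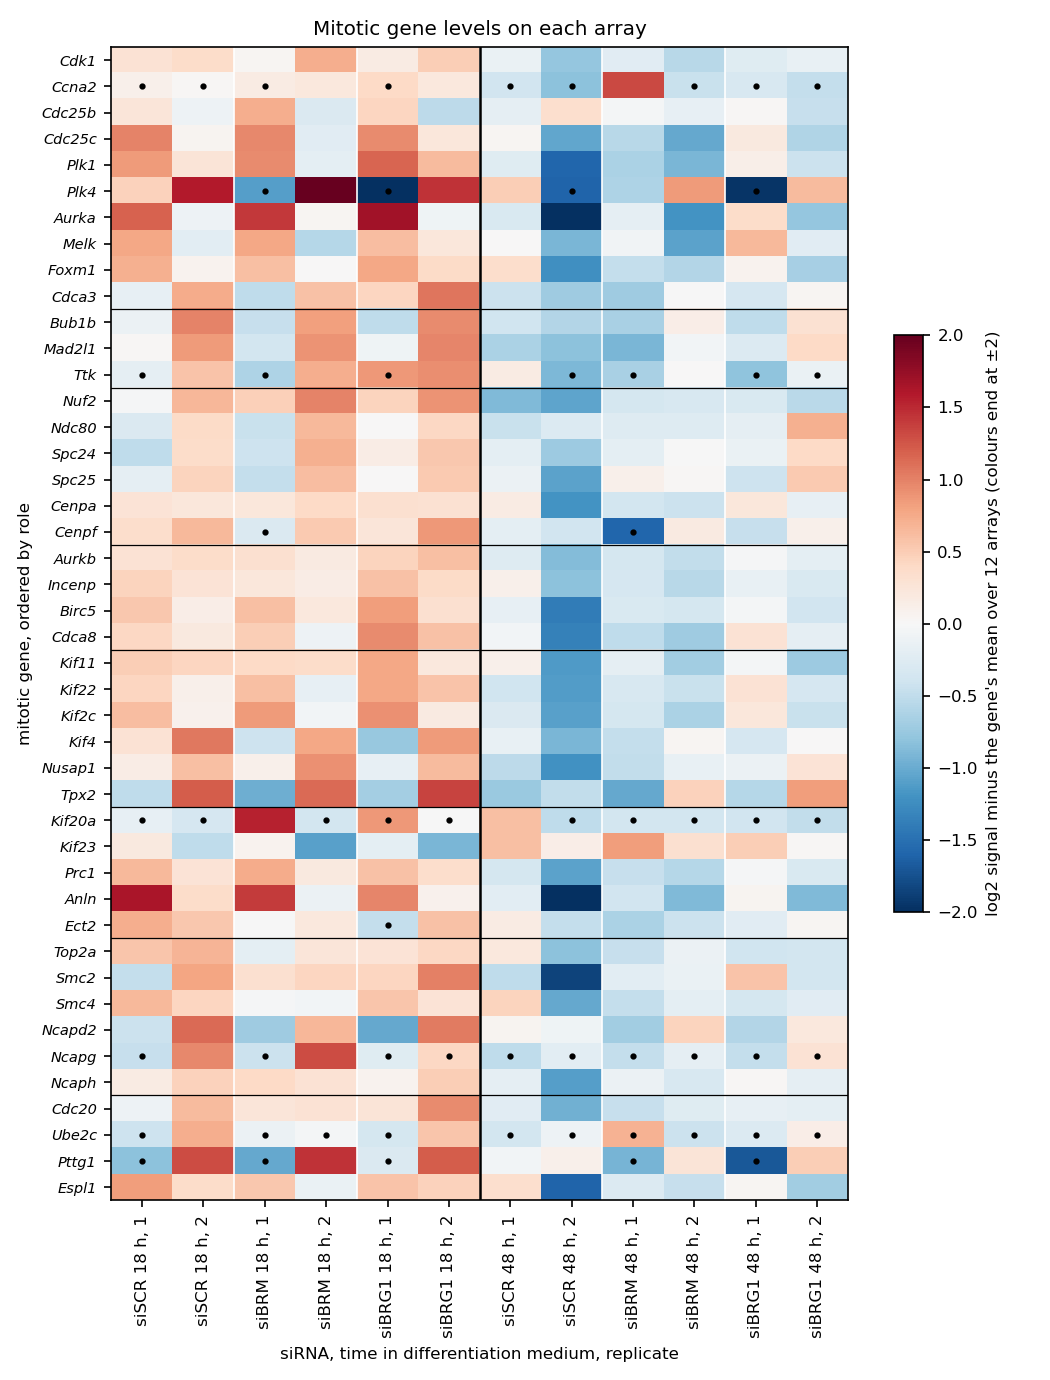
Level of each of the 44 mitotic genes on each of the 12 arrays, as log2 signal minus the mean of that gene over the arrays (colours end at 2 in either direction), with genes ordered by role and a dot where the probe was not detected. The 48 h side is mostly blue, the siSCR array of replicate 2 at 48 h is the darkest column, and the row of Kif23 runs the other way.

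**Figure D3:**
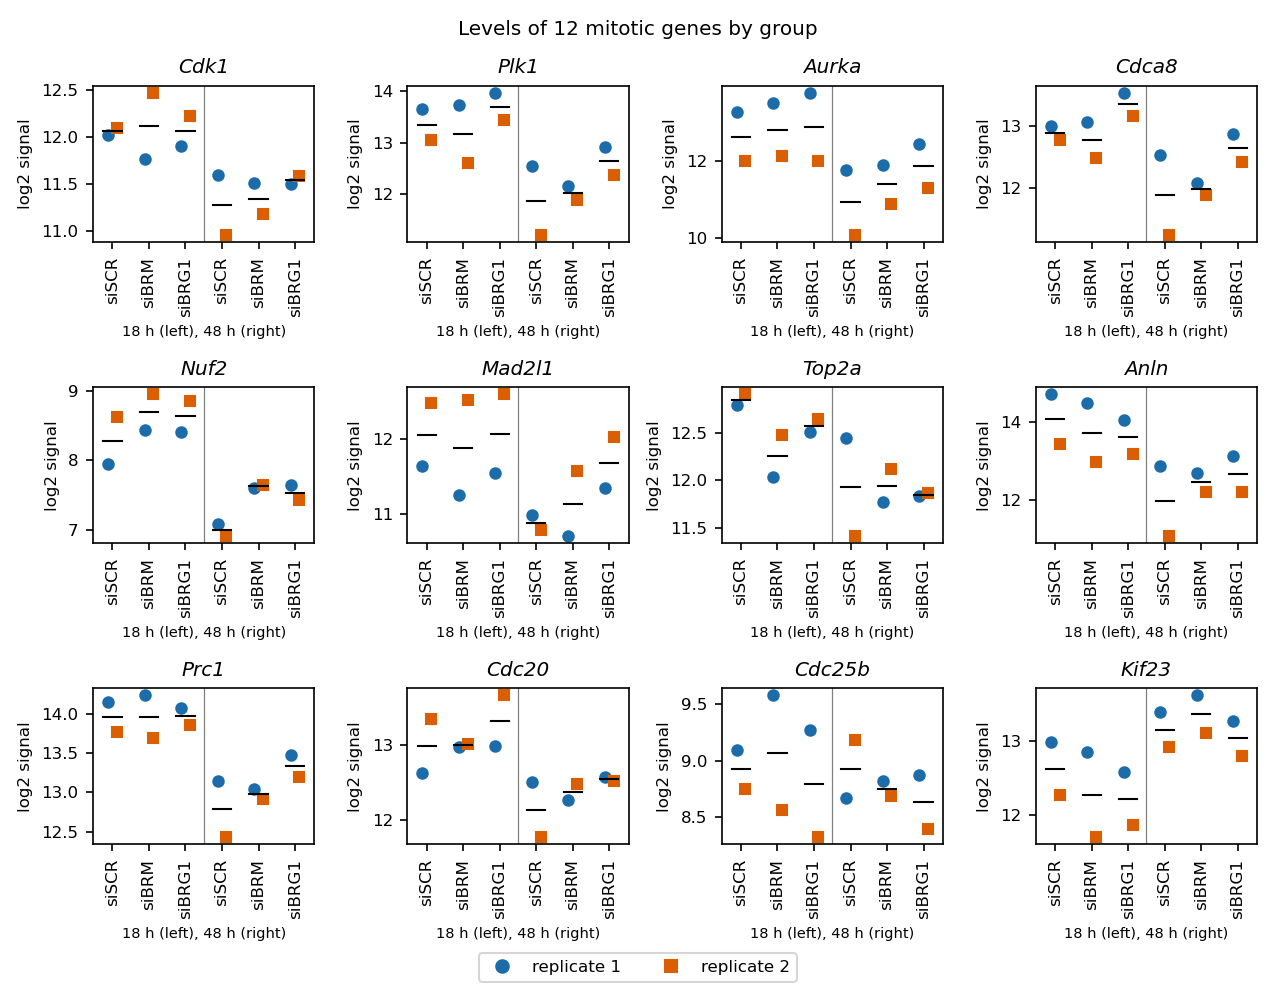
Log2 signal of 12 mitotic genes in the 6 groups, with circles for replicate 1, squares for replicate 2 and a bar at the group mean; each panel has its own y axis, which does not start at 0. Cdk1, Nuf2, Prc1 and Cdc20 separate the 2 times on every array, the brightest probe of Kif23 runs upwards and Cdc25b overlaps between the times.

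The genes around this set, taken from lists chosen with earlier results in view, gave a similar picture in siSCR at 48 h against 18 h. Of 52 tested genes from a longer list of mitotic genes, 42 were lower in both replicates (31.9% of all genes) and 1 higher (25.3%), with a median of -0.91. The same shares of all genes stand beside the siSCR counts of the lists that follow. Ncapg2, a condensin II subunit, differed by -1.61 in both replicates and fell in the fit with the BeadChip fixed (limma adjusted p = 0.0446). Of 38 tested genes of G1/S and DNA replication, 31 were lower in both and 0 higher (median -0.98); Ccne2 (cyclin E2) differed by -2.41 and fell with the BeadChip fixed (limma adjusted p = 0.017). Of 9 cohesin genes, 8 were lower in both and 1 was higher (median -0.69). The 10 tested genes from a list of subunits and regulators of the anaphase-promoting complex, which is needed outside mitosis too, had a median of 0.04, with 3 lower and 2 higher in both replicates.

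Regulators differed in both directions. Of 18 tested transcription factors of the G2/M programme, with Foxm1 of the main set among them, 11 were lower in both replicates and 4 higher (median -0.66). Mybl2 (B-Myb) differed by -0.63 and -2.54, Lin54, the MuvB subunit that meets the homology element, by -1.22 and -1.76, and E2f5 by -0.90 and -2.05. E2f4, the E2F of the DREAM complex, differed by 0.30 and 0.40. None of these 4 passed the test. Of 7 genes that hold back Cdk1 or the cycle, 5 were higher in both and 1 lower (median 1.36). Cdkn1a (p21) was higher by 0.94 and 2.40, and rose with the BeadChip fixed (limma adjusted p = 0.0408). Gadd45a, a stress-induced inhibitor of the Cdk1 complex, was higher by 1.52 and 3.13, and Cdkn1c (p57) by 1.44 and 3.52, neither past the test. The 7 muscle markers were all higher in both replicates (median 1.29), and 2 of them rose with the BeadChip fixed (1.39% of all genes did); Myog (myogenin) read 10.26 and 11.04 in siSCR at 18 h and 12.73 and 13.90 at 48 h.

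The steps between the times were also set beside the promoter elements, as a description with no test. In siSCR the median difference between the times was -0.86 over the 24 genes with both, -1.12 over the 11 whose promoter lacked at least 1, and -0.83 over the 9 with no promoter listed. With siBRM the 3 medians were -0.59, -0.73 and -0.64, and with siBRG1 -0.63, -0.38 and -0.71. Nuf2, whose 110 bases before the start are printed above without capitals, belonged to the second class, and Prc1, Top2a and Cdk1 to the first.

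At 18 h the siRNAs against BRM and BRG1 left the mitotic genes close to siSCR. The median difference of siBRM from siSCR was -0.09 (-0.08 and -0.14 within the replicates), with 17 of 44 lower in both replicates (26.4% of all genes) and 6 higher (24%). The groups did not overlap for 5 that were lower (5.19%) and 1 that was higher (4.92%). Under median scaling it was 0.02, but the median of all genes was then 0.07, and relative to all genes the shift was -0.05, against -0.07 as reported. That of siBRG1 was 0.06 (0.11 and 0.09), with 20 higher in both (29.8%) and 8 lower (29.7%). For siBRG1 the groups did not overlap for 7 that were higher (7.01%) and 1 that was lower (8.25%). Both comparisons use the same siSCR arrays, as do those at 48 h, and the siSCR step between the times uses all 4 of these. Limma called 0 of the 44 in either comparison (0% of all genes), and 0 had an unadjusted p under 0.05, where 0.313% of all genes had one for siBRM and 1.18% for siBRG1, or 2.58% and 6.06% with the BeadChip fixed. Top2a had the smallest p for siBRM: it read 12.80 and 12.91 with siSCR and 12.04 and 12.48 with siBRM (-0.60 ± 0.45, adjusted p = 1), and both siBRM arrays lay below both siSCR arrays. Its second probe, also detected on all 12 arrays, differed by 0.32 on average, so no direction can be given for the gene. Smc4 differed by -0.58 ± 0.50 (adjusted p = 1), yet by 0.00 when its 3 probes were averaged. Kif20a differed by 0.84 ± 0.65 (adjusted p = 1), which rests on the 1 siBRM array on which it was detected and came to -0.12 without that array. With siBRG1 the 3 smallest p belonged to Ect2, the exchange factor that starts the furrow (-0.58 ± 0.47), Ttk (0.71 ± 0.60) and Kif20a (0.69 ± 0.65), each with an adjusted p of 1. Ect2 was undetected on the siBRG1 array of replicate 1, Ttk on both arrays of replicate 1, and Kif20a on all 4. Of the passenger complex all 4 genes were higher with siBRG1 in both replicates, Cdca8 by 0.53 and 0.40 and Aurkb by 0.16 and 0.23.

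At 48 h the mitotic genes lay higher with siBRG1 than with siSCR, and the size of this rested on the low siSCR array of replicate 2. The median difference was 0.40, against 0.04 over all genes; it was 0.07 within replicate 1 and 0.76 within replicate 2. In both replicates 25 of 44 were higher (30% of all genes) and 1 was lower (24.1%), and the groups did not overlap for 11, all higher with siBRG1 (10.5% of all genes), with 0 lower (10.5%). Within replicate 2 alone 42 of 44 were higher (54.5% of all genes), and within replicate 1 alone 26 were (51.4%). Without the siSCR array of replicate 2 the median was 0.03, and without that of replicate 1 it was 0.76. Under median scaling the median of all genes was -0.18 and that of the mitotic genes 0.21.

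Smc2 differed most: it read 7.42 and 6.08 with siSCR and 8.5 and 7.57 with siBRG1, 1.08 and 1.49 apart (1.28 ± 0.61, limma adjusted p = 1; 0.372 with the BeadChip fixed). Both siBRG1 arrays lay above both siSCR arrays. Nusap1 read 10.71 and 10.02 with siSCR and 11.11 and 11.50 with siBRG1 (0.94 ± 0.50, adjusted p = 1). Kif22, the chromokinesin Kid, read 12.03 and 11.30 and 12.71 and 12.08 (0.73 ± 0.46, adjusted p = 1), with nearly equal differences in the replicates, 0.67 and 0.78. The same held for Nuf2, which read 7.07 and 6.91 and 7.65 and 7.42 (0.57 and 0.52 apart), for Kif2c (0.52 and 0.64) and for the brightest probe of Melk, a kinase of mitotic cells (0.64 and 0.70). It did not hold for the other probes of Melk. The second, detected on 11 arrays, differed by 0.63 in replicate 1 and by more in replicate 2. The third, detected on 10 arrays, differed by -0.07 and 1.74. Mad2l1, Plk1 and Cdca8 were higher by 0.35 and 1.22, 0.37 and 1.16, and 0.35 and 1.19. Top2a and Smc4 went opposite ways in the replicates, by -0.62 and 0.46 and by -0.81 and 0.80. Limma called 0 of the 44 (0% of all genes), and 0 had an unadjusted p under 0.05 without a block (2.01% of all genes did). Once the BeadChip was fixed, 10 had one (10.6% of all genes), all higher with siBRG1, with adjusted p of 0.334 (Aurka) and above.

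Other lists differed beside these values. The 7 muscle markers were lower with siBRG1 in both replicates at 48 h, where 24.1% of all genes were (median -0.79, with -0.66 and -1.26 within the replicates). They were also lower in both at 18 h, where 29.7% of all genes were (median -0.78), when the mitotic genes differed by 0.06. Of the 7 genes that hold back Cdk1 or the cycle, 6 were lower with siBRG1 in both replicates at 48 h (24.1% of all genes, median -0.34). Cdkn1a differed by -0.18 and -1.17 and Rb1 by -1.42 and -0.49. The longer mitotic list had a median of 0.47, with 31 of 52 higher in both (30% of all genes), and the G1/S list 0.43, with 19 of 38. E2f5 was higher by 0.84 and 2.01. All these 48 h differences use the same siSCR arrays as those of the mitotic genes, the array of replicate 2 that stood out included. They are therefore not separate evidence. The part of these lists in the result was not tested, and none of their genes passed the test with the BeadChip fixed.

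With siBRM at 48 h the replicates went opposite ways. The median difference from siSCR was -0.24 within replicate 1 and 0.67 within replicate 2, and 0.20 over the means. Within the replicates 13 and 41 of the 44 were higher (50.2% and 54.2% of all genes). In both replicates 11 were higher (21% of all genes) and 1 was lower (16.5%). The groups did not overlap for 5 that were higher (5.41%) and 0 that were lower (5.68%), and without the siSCR array of replicate 2 the median was -0.17. It was also -0.17 under median scaling, where the median of all genes was -0.26. Nuf2 read 7.60 and 7.64 with siBRM, above both siSCR arrays (0.63 ± 0.42, limma adjusted p = 1), and Smc2 read 7.71 and 7.80 (1.0 ± 0.61, adjusted p = 1). Ccna2 was detected on 1 siBRM array, at 7.33, and on no siSCR array (adjusted p = 1); in replicate 2 both siRNAs gave a signal at background, so no fold is given. Limma called 0 of the 44 (0% of all genes). At an unadjusted p under 0.05, 0 passed without a block (0.157% of all genes) and 3 with the BeadChip fixed (2.24%).

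**Figure D4:**
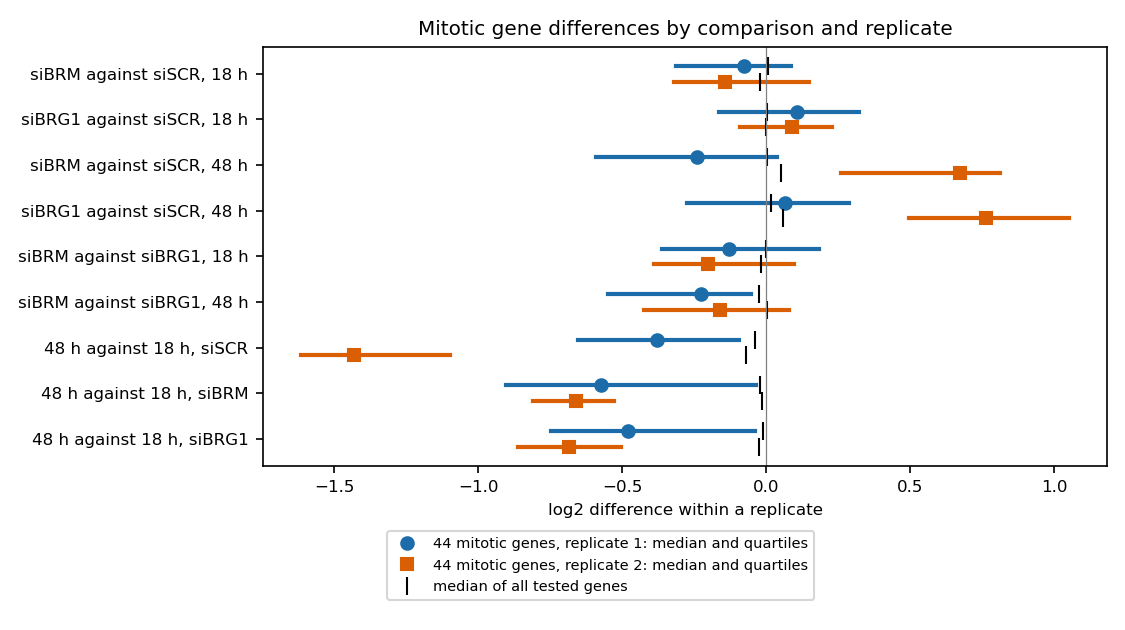
Median (point) and quartiles (line) of the log2 difference over the 44 mitotic genes in each comparison, within replicate 1 (circles) and within replicate 2 (squares), with a tick at the median of all 10847 tested genes. The replicates lie side by side at 18 h and for siBRM against siBRG1, and apart wherever the siSCR 48 h arrays enter, as for siBRM against siSCR at 48 h (-0.24 and 0.67).

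The direct comparison of the siRNAs does not use the siSCR arrays. At 48 h its replicates were closer than those of the comparisons with siSCR, although leaving out 1 array moved the 48 h value. At 18 h its replicates were not closer. The median difference of siBRM from siBRG1 over the mitotic genes was -0.18 at 18 h (-0.13 and -0.20 within the replicates) and -0.21 at 48 h (-0.23 and -0.16). At 48 h 21 of 44 were lower in both replicates (31% of all genes) and 5 higher (28.7%), and at 18 h 18 were lower (28.4%) and 4 higher (26.3%). The groups did not overlap at 48 h for 10 genes that were lower with siBRM (9.8% of all genes) and for 1 that was higher (9.75%), and at 18 h for 7 that were lower (6.64%) and 0 that were higher (7.32%). Relative to the median of all genes these shifts were -0.16 at 18 h and -0.20 at 48 h, and under median scaling -0.13 and -0.21. At 48 h the median was 0.04 without the siBRM array of replicate 1 and -0.46 without that of replicate 2, both with the BeadChip fixed, and -0.14 and -0.26 without a block. The passenger complex gene Cdca8 read 12.08 and 11.89 with siBRM and 12.88 and 12.42 with siBRG1 at 48 h (-0.67 ± 0.51, limma adjusted p = 1), and it was lower with siBRM at 18 h too (-0.57 ± 0.51, adjusted p = 1). Melk read 9.17 and 8.17 and 9.90 and 9.03 (-0.79 ± 0.65, adjusted p = 1), with the groups overlapping. Ttk (-0.85 ± 0.60) and Cdca3, which triggers the decay of the Cdk1 inhibitor Wee1 (-0.71 ± 0.54), had the smallest p at 18 h (adjusted p = 1 for both). Ttk was undetected on both arrays of replicate 1 at 18 h, so its mean difference rests largely on signals at background. Within replicate 2, where both arrays detected it, Ttk differed by -0.21. Ccna2 at 48 h was detected on the siBRM array of replicate 1 and on no siBRG1 array, and no fold is given. Limma called 0 of the 44 at either time (0% of all genes). At an unadjusted p under 0.05, 0 passed without a block (1.36% and 1.89% of all genes at 18 h and 48 h) and 1 at each time with the BeadChip fixed (6.79% and 8.09%).

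Whether an siRNA effect differed between the times was tested directly, and no mitotic gene passed. The median difference of the effect was 0.25 for siBRM (-0.12 and 0.73 within the replicates; 14 of 44 higher in both, 23% of all genes, and 1 lower, 18.6%) and 0.32 for siBRG1 (0.03 and 0.65; 23 higher in both, 30.3% of all genes, and 1 lower, 23.3%). Without the siSCR 48 h array of replicate 2 these came to -0.10 and -0.04. For siBRM the median was -0.16 under median scaling, where the median of all genes was -0.34. Nusap1 (1.07 ± 0.70), Kif4 (1.0 ± 0.92) and Kif20a (-1.17 ± 0.93) had the smallest p for siBRG1, each with a limma adjusted p of 1, or of 0.918 with the BeadChip fixed. For siBRM they were Kif20a (-1.24 ± 0.93), Ccna2 (0.92 ± 0.78) and Top2a (0.61 ± 0.64), each with an adjusted p of 1 in both fits. Kif20a was detected on 1 siBRM array at 18 h and 1 siSCR array at 48 h, and Ccna2 on no siSCR array. The differences of these 2 genes therefore rest largely on signals at background. The second probe of Nusap1 gave -0.25 for siBRG1, and that of Top2a gave -0.39 for siBRM. All 3 probes of Kif4 had the same sign for siBRG1. Limma called 0 of the 44 (0% of all genes). At an unadjusted p under 0.05, 0 passed for either siRNA without a block (0.203% of all genes for siBRM, 0.562% for siBRG1), and with the BeadChip fixed 0 for siBRM (2.34%) and 2 for siBRG1 (Nusap1 and Anln, 4.4%).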

How the data were processed

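RNA of 12 C2C12 samples was measured on Illumina mouse BeadChips. The deposited table gives, per the file headers, a signal intensity, a detection p-value, a bead number and a bead standard error for each probe and array, made by the authors with GenomeStudio 2009.1, per the submitters' processing notes; the bead columns were not used. Of 45281 probes, 34885 had 1 gene symbol in the platform annotation, 18 several and 10378 none. Signals were background-corrected with normexp (negative controls inferred from the detection p-values, offset 16), quantile-normalized and log2-transformed. Probes detected at p under 0.05 on at least 2 arrays were kept (20415), and the brightest stood for its gene (10847 genes, 4219 with several probes). Limma 3.58.1 (statmod 1.5.0, R 4.3.3) fitted all 6 groups at once without a block, and p-values were Benjamini-Hochberg adjusted over all 20415 kept probes. Further fits added the replicate number or the BeadChip, fixed, or a random BeadChip term (duplicateCorrelation). The script was tested on simulated data.

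Same-numbered replicates deviated together (r = 0.449 to 0.825 over 15 pairs of groups), so the numbers pair the samples. The genes and lists were chosen with earlier results of these data known. Every member could be named by its levels; fitted tests are given for members that passed without a block or with the BeadChip fixed, otherwise for the 3 smallest unadjusted p per comparison, for a core set in siSCR between the times, and for the largest and smallest differences of a role. The tests of Aurka and Prc1, the replicate differences of other members and the genes named from other lists were chosen after their values were seen. Alternatives changed the block, normalization, background correction, probe filter and probe choice, or left out 1 array each. The number of arrays limits the precision.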

Additional observations from a re-analysis of the deposited data

How the results depend on the processing

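The number of mitotic genes that passed the test depended on the replicate block. It was 0 in every comparison without a block. With the replicate number fixed it was 2 for siSCR and 1 for siBRM between the times, with the BeadChip fixed 1 and 0, and with a random BeadChip term 2 and 1. Leaving out 1 array at a time gave 0 to 22 for siSCR between the times; the 22, all lower, came without the siSCR 48 h array of replicate 1 and with the BeadChip fixed, and the cause was not tested. These blocks changed no other call. The median difference of the siBRM step between the times was -0.84 with the BeadChip fixed and -0.80 with it random. Under median scaling the median was 0.018 for siBRM and 0.015 for siBRG1 against siSCR at 18 h, -0.019 and -0.28 for siBRM against siBRG1 at 18 h and 48 h, and -0.42 for the siBRG1 step between the times. The median of all genes moved with it in these 5, to 0.069, -0.050, 0.11, -0.066 and 0.15, and relative to it the mitotic genes lay at -0.052, 0.065, -0.13, -0.21 and -0.56, against -0.073, 0.063, -0.16, -0.20 and -0.63 as reported. Both without background correction and from the authors' normalized values it was -0.12 for siBRM against siBRG1 at 18 h, -0.42 for the siBRM step and -0.40 for the siBRG1 step. The mean over probes gave 0.081 for siBRG1 against siSCR and -0.12 for siBRM against siBRG1 at 18 h. With 1 array left out at a time the median ranged from -1.16 to -0.51 for the siBRM step and from -1.04 to -0.50 for the siBRG1 step, from -0.15 to -0.0058 for siBRM and from -0.0052 to 0.18 for siBRG1 against siSCR at 18 h, and from -0.28 to -0.13 at 18 h and from -0.46 to 0.041 at 48 h for siBRM against siBRG1. Against siSCR at 48 h it ranged from -0.20 to 0.62 for siBRM and from 0.026 to 0.80 for siBRG1, both ends set by the siSCR arrays at 48 h; the siSCR step ranged from -1.44 to -0.49. Directions turned for 5 differences: Smc4 for siBRM at 18 h (0.0027) and Kif23 for siBRM between the times (-0.48) over the mean of probes, Kif20a for siBRM at 18 h (-0.12, range to 1.79 with 1 array left out), Ccna2 for siBRM against siBRG1 at 48 h (-0.049, range to 1.72) and Top2a for the change of the siBRM effect (-0.0063, range to 1.23). No cause of these was tested. Genes detected on few arrays have only a bound where their signal lay at background.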
